A study of Mus musculus with 12 samples.

Results

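The probes described here detect linear transcripts on an array built for circular RNA. The array carries 50 linear RNA probes with 10 spots each, and the 46 that remain after the probes for Apoe, Acaa2, Gsta4 and Prdx2 are set aside were studied. They were chosen by probe name and, for the 4 set aside, by gene annotation, out of 14286 circRNA and linear RNA probes. Of the 46, 40 carried a gene symbol in RefSeq and 6 did not. No gene had more than 1 of these probes.

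Left ventricles (LVs) came from 12 C57BL/6J mice in 4 groups of 3, with 1 array per mouse, 1 female and 2 males in each group, and ages of 9 to 12 weeks. All 12 mice carried the GRK-beta1AR transgene, a β1-adrenergic receptor without its GRK phosphorylation sites that is expressed in cardiomyocytes, so no group had a normal receptor background. TG mice carried this transgene alone, and DTG mice also carried a miR-150 transgene under the ubiquitous CAG promoter, so the added miR-150 was not restricted to heart muscle cells. Vehicle TG and vehicle DTG mice received vehicle, and ISO TG and ISO DTG mice received the β-agonist isoproterenol (ISO), for 1 week. The methods describe ISO at 3 mg/kg/day for 7 days.

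RNase R is an exonuclease that digests linear RNA from its free end and leaves closed circles largely intact. It is used before circRNA profiling for this reason, so a probe for an ordinary messenger RNA is expected to lose most of its target. Signal that remains at such a probe may be undigested linear RNA, a circle that contains the same exon, or cross-hybridisation, and which of these was measured was not tested. Because all 12 samples were treated with RNase R, levels before digestion cannot be had from these arrays. A level below is the log2 intensity of a probe, averaged over its spots, minus the 75th percentile of the circRNA probes on the same array, so a level of 0 lies at that percentile. Levels of different probes do not rank transcripts by amount.

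The 75th percentile of the circRNA probes was between 79.9 and 168.5 intensity units on 11 arrays and 419 on vehicle TG replicate 3, which stood apart. The 15 negative probes, the array's controls for unspecific signal, had a median intensity between 1.04 and 1.32, but their highest reached 15.9 to 50.05, depending on the array. The 14 circRNA control probes had medians of 314 to 646. Scan images placed the arrays on 2 slides. Slide 1 held the 3 ISO DTG arrays and vehicle DTG replicate 3, and slide 2 held the other 8. ISO DTG and ISO TG therefore lay on different slides throughout, and group and slide cannot be told apart in their direct comparison.

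Many of the linear RNA probes gave signal above the negative probes after RNase R. On all 12 arrays, 16 of the 46 probes (34.8%) were brighter than every negative probe. They included Hspb7, H2-Q7, Actb, Lhfp, Ppara, Pex11a, Olfr166, Lhx1, Gpi1, Gamt, Olfr1307 and Duox1, and 3 probes without a symbol. Another 17 probes passed the highest negative probe on some arrays, and 13 passed it on none. All 14 circRNA control probes passed it on every array, and 13 of the 46 linear probes were brighter than the dimmest of those controls on all 12 arrays. By the scanner software's own test, 32 probes were well above background on all 12 arrays, 8 on 3 to 11 arrays, 2 on 1 or 2 arrays and 4 on none. The same test placed 3 of the 15 negative probes well above background on all 12 arrays and 10 of them on none. Passing this test therefore does not by itself separate target signal from unspecific signal. The number of linear probes above every negative probe was 19, 24 and 30 in vehicle TG, 16, 19 and 22 in ISO TG, 23, 24 and 27 in vehicle DTG, and 23, 24 and 24 in ISO DTG, each in ascending order. The highest negative probe was itself brightest on ISO TG replicate 1, at 50.05.

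**Figure D1:**
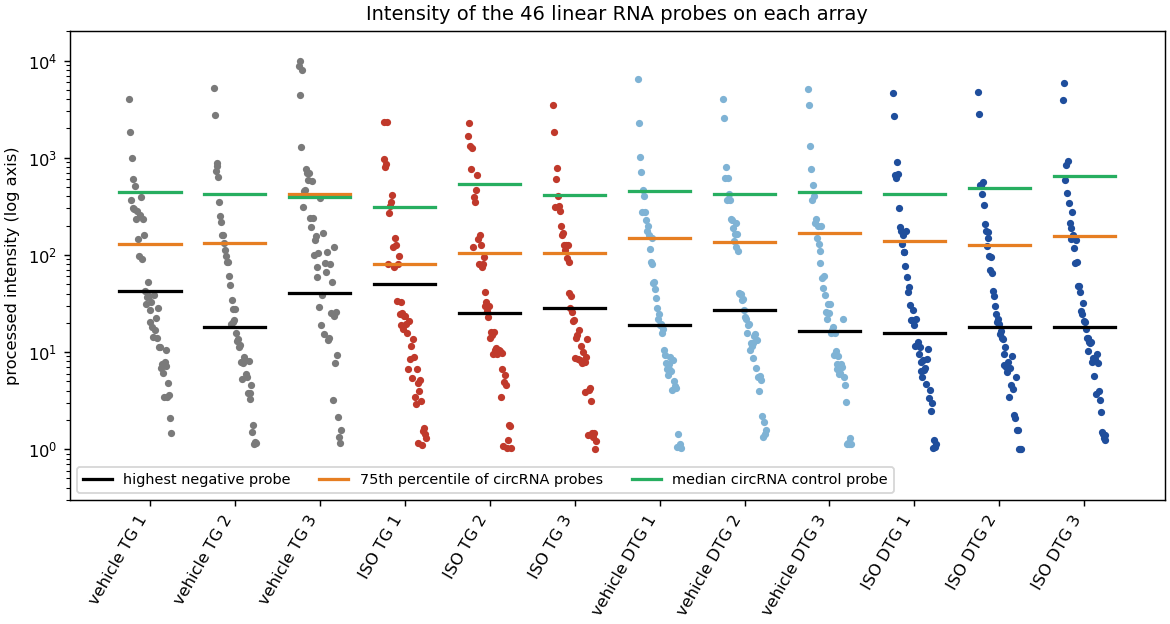
Processed intensity on a log axis of the 46 linear RNA probes (points) on each of the 12 arrays, with the highest negative probe (black line), the 75th percentile of the circRNA probes (orange) and the median circRNA control probe (green). On vehicle TG replicate 3 the 75th percentile reached 419, whereas the median circRNA control probe stayed within the range of the other arrays.

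**Figure D2:**
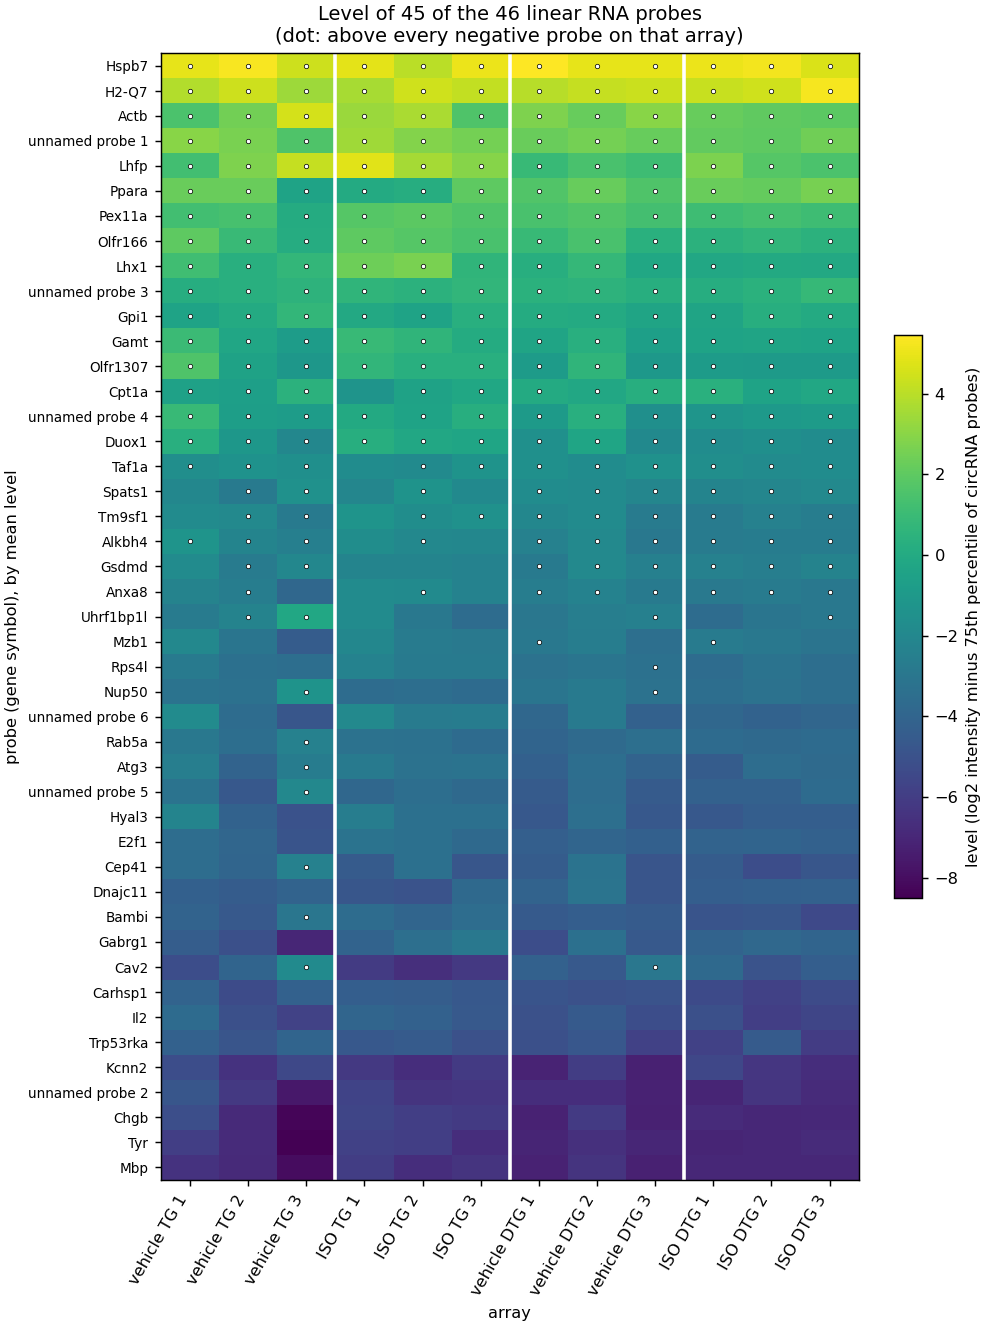
Level (log2) of 45 of the 46 probes on each array, sorted by mean level, with a dot where the probe was brighter than every negative probe of that array (probes without a symbol are numbered). The 15 probes shown with a dot on all 12 arrays lie at the top, and no array marks Chgb, Tyr or Mbp.

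Hspb7, a small heat shock protein abundant in heart and skeletal muscle, had the brightest of the 46 probes. Its level was 4.96, 5.30 and 4.40 in vehicle TG, 4.86, 4.01 and 5.06 in ISO TG, 5.46, 4.92 and 4.93 in vehicle DTG, and 5.06, 5.22 and 4.64 in ISO DTG, for replicates 1 to 3. All 4 groups overlapped. The raw intensity lay between 1683 and 8877. None of the 46 markers listed for cardiomyocytes, fibroblasts, endothelial cells, smooth muscle, macrophages, blood, adipocytes or hepatocytes had a probe here, so the labelled tissue could not be checked against defining markers with these probes.

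Actb, cytoplasmic actin, was the third brightest named probe, and it varied more between mice of one group than between groups. Its level was 1.5, 2.49 and 4.55 in vehicle TG, 3.33, 3.67 and 1.60 in ISO TG, 2.76, 2.20 and 2.99 in vehicle DTG, and 2.24, 2.04 and 1.93 in ISO DTG. The 3 highest values came from vehicle TG replicate 3 and ISO TG replicates 1 and 2. The spread over the 10 spots of an Actb probe was 0.05 (median SD over arrays), against a pooled SD between mice of 0.98. Actb belongs to a family with near-identical paralogs and pseudogenes, and the probe's specificity was not tested.

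Lhfp, which encodes a tetraspan-type membrane protein, showed the same arrays at its top. It stood at 1.24, 2.75 and 4.23 in vehicle TG, 4.85, 3.6 and 2.92 in ISO TG, 0.91, 1.44 and 1.11 in vehicle DTG, and 2.68, 1.75 and 1.48 in ISO DTG. The 4 highest of the 12 values were ISO TG replicates 1, 2 and 3 and vehicle TG replicate 3. Vehicle DTG lay below ISO DTG and ISO TG without overlap.

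Fatty acid handling is covered by 3 probes. Ppara is the nuclear receptor that switches on fatty acid oxidation genes, Cpt1a is the liver-type enzyme for entry of long-chain fatty acids into mitochondria, and Pex11a acts in peroxisome division. Ppara had levels of 2.24, 2.27 and -0.43 in vehicle TG, 0.03, 0.20 and 1.97 in ISO TG, 1.65, 2.20 and 1.64 in vehicle DTG, and 2.26, 2.16 and 2.57 in ISO DTG. Its 3 lowest values came from vehicle TG replicate 3 and ISO TG replicates 1 and 2, the arrays with the 3 highest Actb values. Both observations were made after the values were seen. Ppara is named outside the naming rule because only 2 probes passed the looser limit described below in favour of ISO DTG over ISO TG, and it is 1 of them. Cpt1a averaged -0.23 ± 0.61 in vehicle TG, -0.64 ± 0.57 in ISO TG, 0.04 ± 0.20 in vehicle DTG and -0.07 ± 0.39 in ISO DTG (SD, n = 3), and its groups overlapped in all 4 comparisons. In comparison IV, described further on, the 3 genes had differences of the same sign, and in comparisons I, II and III they did not.

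Other metabolic and redox enzymes were Gpi1 of glycolysis, Gamt of creatine synthesis and Duox1, an oxidase that makes hydrogen peroxide. Gpi1 was among the steadiest probes between groups, with means of 0.11 ± 0.57 in vehicle TG, -0.07 ± 0.34 in ISO TG, -0.07 ± 0.26 in vehicle DTG and -0.03 ± 0.31 in ISO DTG (SD, n = 3). Duox1 was at 0.33, -1.11 and -2.06 in vehicle TG and at 0.27, -0.16 and -0.28 in ISO TG. In DTG it was at -1.51, -0.29 and -1.87 with vehicle and at -1.74, -1.58 and -1.71 with ISO, so the ISO DTG arrays were all below the ISO TG arrays. Gamt followed the same order, with means of 0.54 ± 0.40 in ISO TG and -0.39 ± 0.02 in ISO DTG (SD, n = 3). Dnajc11, a mitochondrial J-domain protein, was dim, at -4.81 to -3.12 in vehicle DTG and -4.93 to -3.73 in ISO TG, where 1 of 3 arrays was well above background.

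Heart muscle is not the usual site of genes of the nervous system and the sense of smell, yet some of them gave brighter signals. Lhx1 is a developmental transcription factor, Olfr166 and Olfr1307 are odorant receptors, and Gabrg1 is a GABA-A receptor subunit. Lhx1, Olfr166 and Olfr1307 each passed every negative probe on all 12 arrays, whereas Gabrg1 was dim and did so on none. Olfr166 ran from 0.15 to 1.98 in vehicle TG and from 1.43 to 1.99 in ISO TG, and it was at 0.34 to 1.46 in vehicle DTG and 0.46 to 0.70 in ISO DTG. Olfr1307 lay between -1.12 and 1.62 in vehicle TG and was narrowest in ISO DTG, at -0.91 to -0.87. Chgb (a granin of secretory granules), Mbp (a myelin protein) and Tyr (the first enzyme of melanin synthesis) were well above background on no array, at intensities of 1.01 to 3.64. Kcnn2, a calcium-activated potassium channel, was well above background on 1 of 12 arrays.

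Immune genes were led by H2-Q7, a nonclassical MHC class I gene with close relatives in the same cluster, so its reading is uncertain at the level of single genes. Its level was 3.82, 4.37 and 3.38 in vehicle TG, 3.61, 4.43 and 4.15 in ISO TG, 3.95, 4.25 and 4.36 in vehicle DTG, and 4.28, 4.47 and 5.24 in ISO DTG. ISO DTG had the highest mean, 4.66 ± 0.51, and vehicle TG the lowest, 3.86 ± 0.50 (SD, n = 3), with ranges that overlapped. Gsdmd, the pore-forming protein of pyroptosis, differed little, with group means from -2.39 to -2.16. Mzb1, an endoplasmic reticulum protein of B and plasma cells, passed the highest negative probe on 2 of 12 arrays. Il2, a T-cell cytokine, did so on none and was well above background on 4 arrays.

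The remaining named probes cover general cell functions and were mostly dim. Taf1a, a factor of RNA polymerase I, was the steadiest probe between mice, with a pooled SD of 0.15 around means of -1.68 to -1.52. Tm9sf1 (a transmembrane protein), Alkbh4 (a demethylase), Spats1 (linked to spermatogenesis) and Anxa8 (an annexin) passed the highest negative probe on 8 to 10 of 12 arrays. Uhrf1bp1l, Rps4l (a ribosomal protein S4-like transcribed pseudogene), Nup50 (a nucleoporin), Rab5a (an early endosome GTPase), Atg3 (an autophagy conjugation enzyme), Cep41 (a centrosomal protein), Bambi (a decoy receptor for TGF-β family ligands) and Cav2 (a caveolin) did so on 1 to 4 arrays. Hyal3 (a hyaluronidase-family gene), E2f1 (a cell cycle transcription factor), Trp53rka (a kinase of the p53 pathway) and Carhsp1 (a cold shock domain protein) did so on none.

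Mice of 1 group differed most in vehicle TG. The median SD between mice of the 40 linear probes that could be tested was 0.82 in vehicle TG, 0.33 in ISO TG, 0.37 in vehicle DTG and 0.18 in ISO DTG, where the same figure over all probes tested was 0.69, 0.39, 0.25 and 0.18. For 30 of the 40 probes the largest SD was in vehicle TG, and for 23 the smallest was in ISO DTG. Vehicle TG replicate 3 was the highest or lowest of the 12 arrays for 26 of the 40 probes. These counts were not made over all probes. Within vehicle TG, replicate 3 was the highest for 37.5% of the 40 and the lowest for 50%, against 38.0% and 48.0% of all probes. In vehicle DTG, replicate 2 was the highest of its group for 30 of the 40 (75%), against 44.3% of all probes. The spread over the spots of 1 probe was smaller, with a median SD per array of 0.05 to 0.16.

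**Figure D3:**
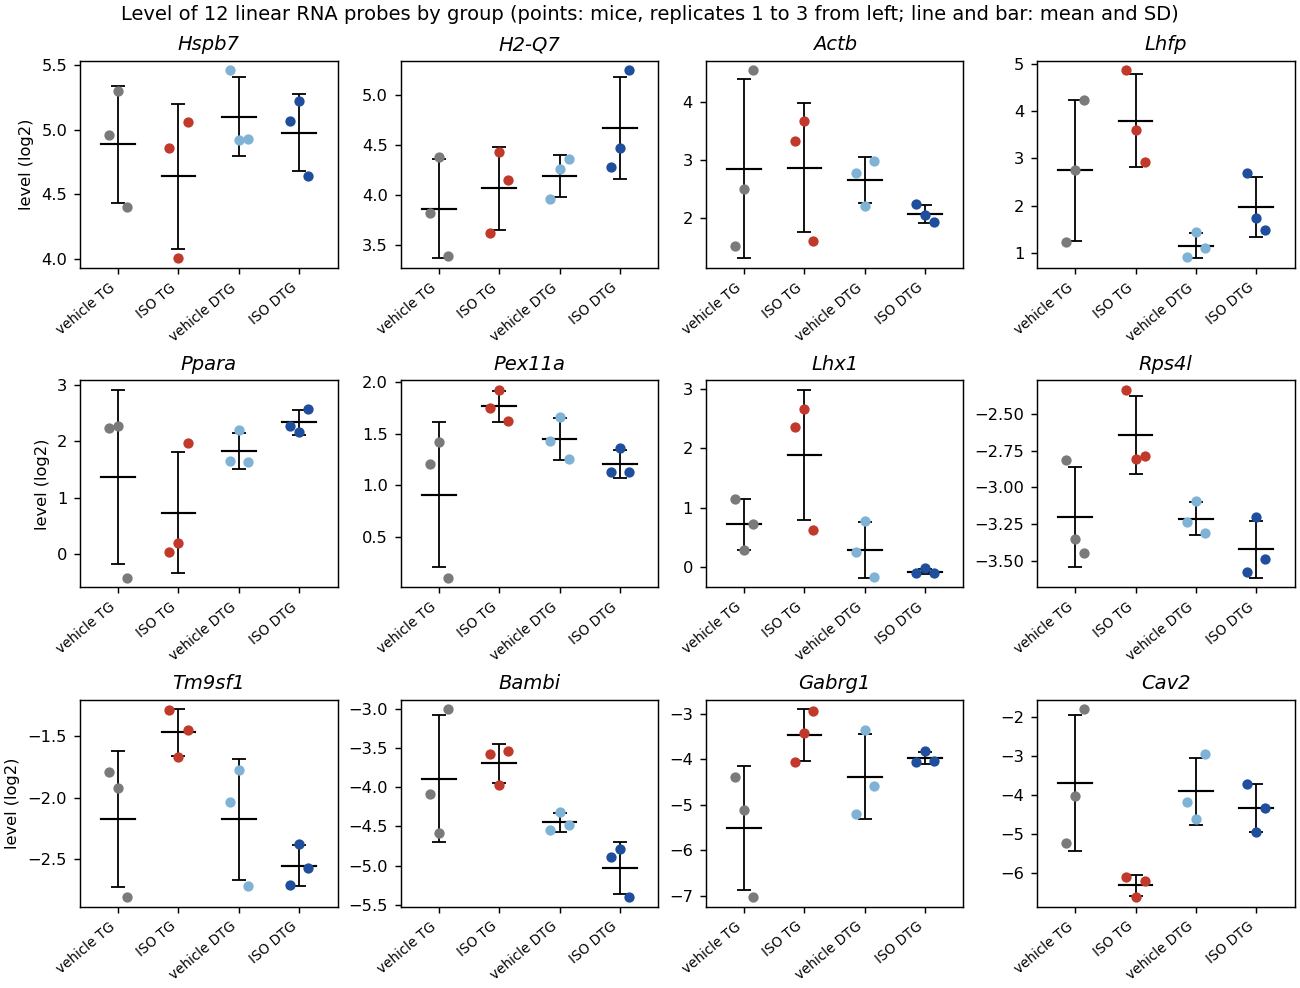
Level (log2) of 12 linear RNA probes in the 4 groups, with 1 point per mouse and the mean and SD of 3 mice. Actb and Lhfp are high, and Ppara is low, on vehicle TG replicate 3 and on ISO TG replicates 1 and 2, whereas Hspb7 overlaps between all groups.

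Comparison I asks what ISO does in TG hearts (ISO TG minus vehicle TG). Of the 46 probes, 40 were well above background on at least 3 arrays and were tested, and none passed an adjusted p of 0.05 (limma, Benjamini-Hochberg over all 13076 probes tested), where the background was 0% of all probes. A looser limit asked for a 1.5-fold difference and a p under 0.05 before adjustment. At this limit 5 of 40 were higher with ISO, against 7.95% of all probes, and 2 were lower, against 5.58%, so that 7 of 40 (17.5%) were called against 13.5% of all probes. The share lies close to the background. Groups did not overlap for 7 of 40 probes (17.5%), against 9.97% of all probes. The median difference of the 40 was 0.24, beside 0.09 for all probes, but it was 0.080 beside 0.060 without vehicle TG replicate 2 and 0.14 beside 0.055 without vehicle TG replicate 3. In whole ventricles, fewer cells of a type and less RNA per cell cannot be told apart.

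Those higher with ISO included Gabrg1, Lhx1, Pex11a and Anxa8. Lhx1 differed by 1.17 ± 0.47 (SE), with 2.36, 2.67 and 0.63 in ISO TG against 1.15, 0.28 and 0.72 in vehicle TG, so 1 ISO array fell within the vehicle range. Pex11a was at 1.21, 1.42 and 0.11 in vehicle TG and 1.75, 1.93 and 1.62 in ISO TG (0.85 ± 0.33, SE, adjusted p of 0.36). Anxa8 was at -2.25, -2.61 and -3.84 against -1.77, -1.81 and -2.30 (0.94 ± 0.37, SE). Without vehicle TG replicate 3 the difference was 0.45 for Pex11a and 0.47 for Anxa8, and for Lhx1 it was 0.78 without ISO TG replicate 2 and 1.798 without ISO TG replicate 3.

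Gabrg1 passed the highest negative probe on no array. It was at -4.39, -5.12 and -7.03 in vehicle TG, where 1 of 3 arrays was well above background. In ISO TG it was at -4.06, -3.41 and -2.93, where 2 were. The fitted difference was 2.05 ± 0.62 (SE) with an adjusted p of 0.36, and vehicle TG replicate 3 held the lowest of the 12 values. Without that array the difference was 1.29. Rps4l and Tm9sf1 did not reach the looser limit, but their groups did not overlap. Rps4l was at -2.81, -3.35 and -3.45 in vehicle TG and -2.34, -2.81 and -2.78 in ISO TG (0.56 ± 0.26, SE). Tm9sf1 was at -1.80, -1.92 and -2.81 against -1.29, -1.67 and -1.45 (0.70 ± 0.33, SE), and it differed by 0.39 without vehicle TG replicate 3.

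The 2 probes lower with ISO were Cav2 and Nup50. Cav2, a membrane protein of caveolae, was well above background on 2 of 3 vehicle TG arrays and on no ISO TG array. Its level was -5.23, -4.03 and -1.81 in vehicle TG and -6.10, -6.61 and -6.21 in ISO TG, without overlap. Taken as a bound, because the ISO TG probes were not well above background, Cav2 was at least 1.5-fold higher in vehicle TG (adjusted p of the fitted difference, 0.36). The bound sets the mean of the bright group against, on each array of the dim group, the lowest signal that the scanner software called well above background or the probe's own value, whichever was higher. It rested on vehicle TG replicate 3, since no bound above 1 remained without that array, and with normexp background correction Cav2 turned to higher in ISO TG (0.54). Nup50 was at -3.16, -3.28 and -1.33 against -3.58, -3.46 and -3.61 (-0.96 ± 0.43, SE, adjusted p of 0.36). Its difference was -0.33 without vehicle TG replicate 3 and turned to 0.47 with normexp.

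The direction of comparison I depended on the scaling. All 14 circRNA control probes and all 15 negative probes were also higher in ISO TG at this scaling, by medians of 0.93 and 0.90. With arrays scaled to the circRNA control probes, the median difference of the 40 linear probes became -0.68 beside -0.82 for all probes, and with no scaling it was -0.77 beside -0.92. The split of called probes went from 5 higher and 2 lower to 1 higher and 9 lower with circRNA control scaling, where 29.1% of all probes were called. It was 0 higher and 10 lower with no scaling (34.3% of all probes), and 14 higher and 1 lower with normexp (33.5%). Pex11a, Rps4l and Tm9sf1 turned to lower with circRNA control scaling (-0.061, -0.36 and -0.21) and with no scaling (-0.16, -0.45 and -0.31). Anxa8 did so with no scaling alone (-0.066), while Gabrg1 and Lhx1 kept their sign. Without vehicle TG replicate 1 the count of called probes became 20, beside 38.3% of all probes. Without ISO TG replicate 1 it was 4, beside 6.37%, and without ISO TG replicate 2 it was 3, beside 6.26%. All 6 arrays lay on slide 2, and a fit of that slide alone called 3, beside 5.68%.

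Comparison II asks what added miR-150 goes with under ISO (ISO DTG minus ISO TG), and here the linear probes lay further from the rest of the array than in I, III or IV. At the looser limit, 16 of the 40 probes (40%) were called, against 25.5% of all probes. Of these, 14 (35.0%) were lower in ISO DTG, against 16.1% of all probes, and 2 (5%) were higher, against 9.38%. None passed the adjusted limit, with a lowest adjusted p of 0.15, and the background at that limit was 0% of all probes. The ISO DTG arrays all lay below the ISO TG arrays for 20 of 40 probes (50%), against 28.3% of all probes. The median difference was -0.69 for the 40 probes and -0.11 for all probes, and the sign was negative for 32 of 40.

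The 14 lower in ISO DTG included Lhx1, Bambi, Lhfp, Tm9sf1, Rps4l, Duox1, Olfr166, Gamt, Anxa8, Alkbh4, Hyal3, Il2 and 1 probe without a symbol. Among them, Bambi, Rps4l, Hyal3, Il2 and the probe without a symbol were dimmer than the highest negative probe on every ISO TG and ISO DTG array. Their signal lay in the range of unspecific signal, and whether it came from the target was not tested. Lhx1 was at 2.36, 2.67 and 0.63 in ISO TG and at -0.11, -0.03 and -0.10 in ISO DTG, a difference of -1.97 ± 0.47 (SE, adjusted p of 0.15). The groups did not overlap, and ISO TG replicate 3 was the nearest to the ISO DTG arrays.

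Bambi was at -3.57, -3.97 and -3.53 in ISO TG, where all 3 arrays were well above background, and at -4.89, -4.78 and -5.40 in ISO DTG, where none was. As a bound it was at least 2.11-fold lower in ISO DTG (adjusted p of the fitted difference, 0.15). Its ISO TG intensities of 6.67 to 8.99 lay below the highest negative probe, which was at 25.5 to 50.05 on these arrays. Lhfp was 4.85, 3.6 and 2.92 against 2.68, 1.75 and 1.48 (-1.82 ± 0.67, SE, adjusted p of 0.15). Tm9sf1 was -1.29, -1.67 and -1.45 against -2.71, -2.38 and -2.57 (-1.08 ± 0.33, SE), and Rps4l was -2.34, -2.81 and -2.78 against -3.57, -3.20 and -3.48 (-0.78 ± 0.26, SE). Il2 was well above background on no ISO DTG array and on 2 of 3 ISO TG arrays, which bounds it as at least 1.44-fold lower in ISO DTG. Its ISO TG intensities of 4.28 to 5.81 also lay below the highest negative probe. Pex11a missed the looser limit at -0.56 ± 0.33 (SE), with 1.75, 1.93 and 1.62 against 1.13, 1.36 and 1.13 and no overlap.

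Ppara and Cav2 were the 2 probes higher in ISO DTG. Ppara was at 0.03, 0.20 and 1.97 in ISO TG and at 2.26, 2.16 and 2.57 in ISO DTG, a difference of 1.60 ± 0.67 (SE) with an adjusted p of 0.17. The groups did not overlap, although ISO TG replicate 3 came near the ISO DTG arrays. Cav2 was at -6.10, -6.61 and -6.21 against -3.71, -4.94 and -4.33, again without overlap. No fold is given for Cav2, because the ISO TG signal was not well above background on any array and the bound fell under 1.

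Slide and background went along with comparison II. All 15 negative probes were lower in ISO DTG at this scaling, with a median difference of -0.56, and the circRNA control probes had a median difference of -0.21. With slide as a block, which rests on vehicle DTG replicate 3 as the only link between the slides for DTG, the median difference was -0.27 beside -0.08 for all probes, and 0 of 40 probes were called at the looser limit, beside 1.05% of all probes. Lhfp then differed by -1.76 and Ppara by 1.89, whereas Lhx1 differed by -1.28, Pex11a by -0.27 and Tm9sf1 by -0.26. Comparison II has no within-slide value, since no slide held both groups. The count at the looser limit was 6 without ISO TG replicate 1, beside 9.54% of all probes, and 10 without ISO TG replicate 2, beside 15.3%. It was 9 without any single ISO DTG array, beside 14.9% to 16.0%. The ISO DTG mice were 10, 11 and 12 weeks old and the ISO TG mice 9, 10 and 10 weeks. With age as a covariate 9 probes were called, 1 higher and 8 lower, beside 20.8% of all probes. Without vehicle TG replicate 3, which enters the fit through the shared error alone, 11 of 40 passed the adjusted limit, beside 11.7% of all probes. In a fit of only the 6 arrays compared, 15 passed it, beside 14.5%.

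The median of the linear probes lay below that of all probes by a gap of -0.59, which a scaling by 1 constant per array cannot change. The gap was -0.34 with quantile normalization, -0.29 with normexp background correction and -0.19 with slide as a block. The calls split into 2 higher and 8 lower with circRNA control scaling (15.04% of all probes called) and 3 higher and 9 lower with quantile normalization (23.6%). They split into 3 higher and 7 lower with normexp (22.3%) and 4 higher and 2 lower with no scaling (19.5%). Over all 46 probes, with no filter on dim probes, the medians were 0.24 in comparison I and -0.69 in comparison II, the same as for the 40 tested.

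**Figure D4:**
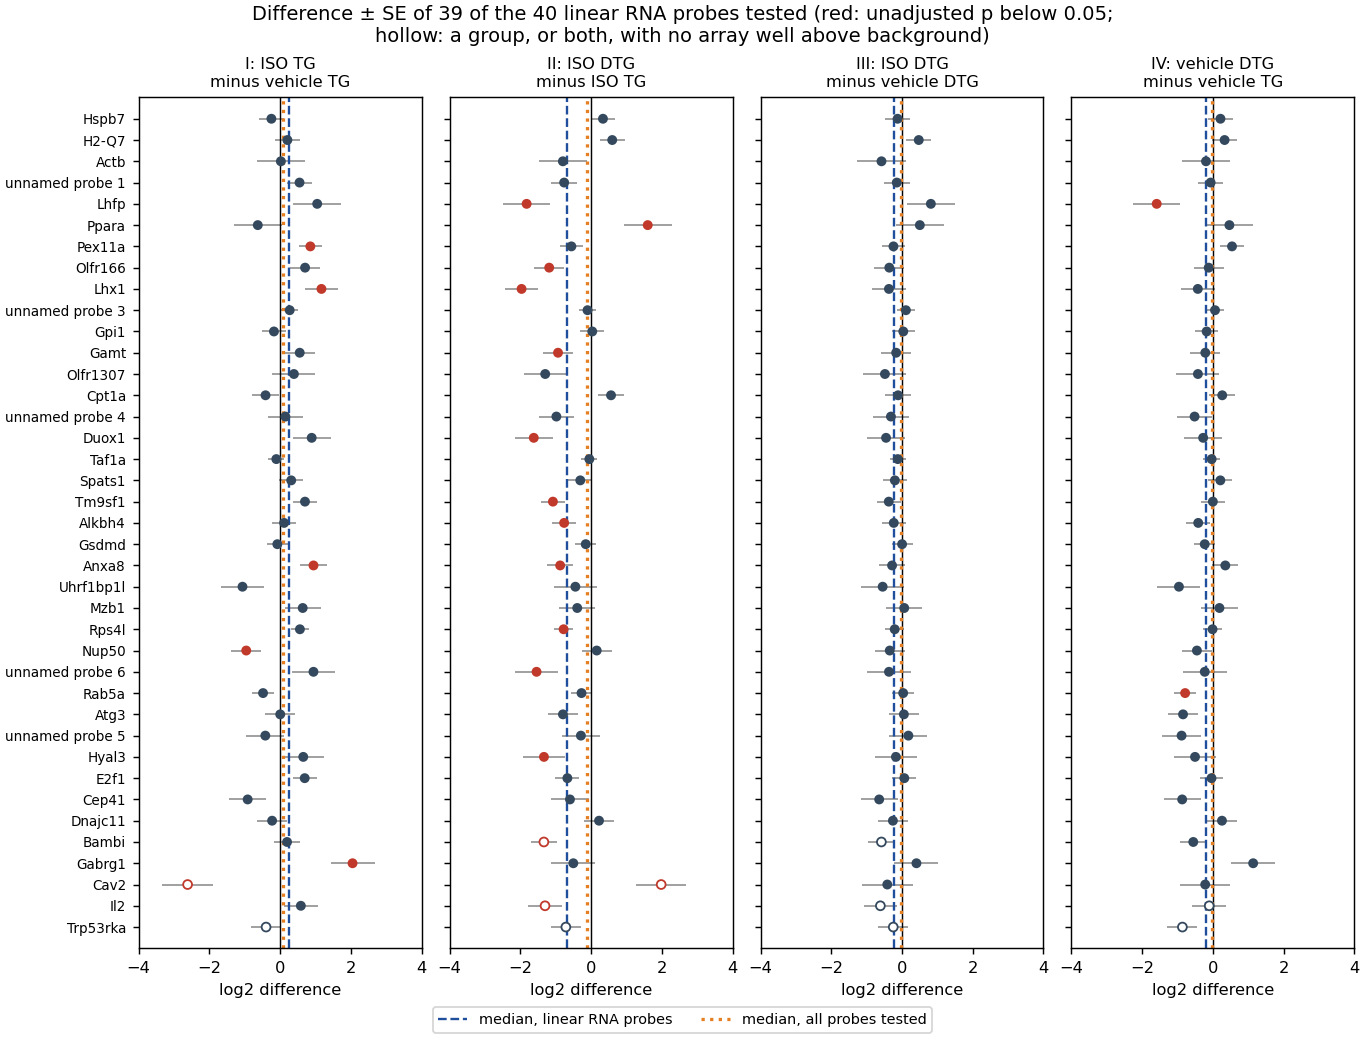
Difference between groups (log2, ± SE) of 39 of the 40 linear RNA probes tested in comparisons I to IV, red where the unadjusted p was below 0.05 and hollow where at least 1 of the groups had no array well above background. The dashed line is the median of the 40 linear probes and the dotted line that of all probes tested, which lie at -0.69 and -0.11 in comparison II.

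Comparison III asks what ISO does when miR-150 is added (ISO DTG minus vehicle DTG). No probe was called at either limit, where the background was 0% of all probes after adjustment and 1.75% at the looser limit. Groups did not overlap for 2 of 40 probes (5%), against 19.5% of all probes. The median difference was -0.22, beside -0.02 for all probes, and 28 of 40 signs were negative.

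The probe with the lowest p was Bambi, at -4.54, -4.31 and -4.48 in vehicle DTG and -4.89, -4.78 and -5.40 in ISO DTG. As a bound it was at least 1.25-fold lower with ISO (adjusted p of the fitted difference, 1.00). H2-Q7 was higher with ISO by 0.47 ± 0.35 (SE, adjusted p of 1.00), with overlapping groups, and by 0.18 without ISO DTG replicate 3. Lhfp was higher by 0.82 ± 0.67 (SE, adjusted p of 1.00), at 0.91, 1.44 and 1.11 against 2.68, 1.75 and 1.48, without overlap, and by 0.46 without ISO DTG replicate 1. Il2 was not well above background in either group, so no fold is given. With the slide as a block, or on slide 1 alone, where 3 ISO arrays faced 1 vehicle array, the median turned to 0.14. Without vehicle DTG replicate 2 it was 0.00062. At the looser limit the count was 5 with a weight for each array (9.50% of all probes) and 2 with age as a covariate (5.89%). It was 1 with normexp (3.15%) and 1 in a fit of only the 6 arrays compared (5.72%). The count stayed at 0 without any single array, beside 0.727% to 3.71% of all probes.

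Comparison IV asks what added miR-150 goes with under vehicle (vehicle DTG minus vehicle TG). None of the 40 probes passed the adjusted limit, beside 0% of all probes. At the looser limit 2 of 40 (5%) were called, both lower, against 2.06% of all probes, and no probe had groups without overlap, against 5.96%. The median difference was -0.19, beside -0.03 for all probes. Rab5a was at -2.92, -3.46 and -2.35 in vehicle TG and -4.0, -3.68 and -3.42 in vehicle DTG, a difference of -0.79 ± 0.30 (SE, adjusted p of 1.00). Lhfp was at 1.24, 2.75 and 4.23 against 0.91, 1.44 and 1.11 (-1.59 ± 0.67, SE, adjusted p of 1.00). Trp53rka was well above background on 2 of 3 vehicle TG arrays and on no vehicle DTG array. As a bound it was at least 1.39-fold lower in DTG (adjusted p of the fitted difference, 1.00). Without vehicle TG replicate 3, Lhfp differed by -0.84 and Rab5a by -0.51, and with normexp Rab5a (0.64) and Trp53rka (0.95) turned to higher in DTG. The count was 6 without vehicle TG replicate 2 (7.88% of all probes), 5 without vehicle DTG replicate 2 (2.58%) and 4 without vehicle TG replicate 1 (5.10%). It was 1 without vehicle DTG replicate 1 (0.765%) or 3 (1.41%). With normexp, 9 probes were higher and 1 lower, beside 18.6% of all probes called. Without vehicle TG replicate 3, no probe was called, beside 5.28%, and on slide 2 alone, with 2 vehicle DTG and 3 vehicle TG arrays, the median was -0.03 and no probe was called either.

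The interaction asks whether the ISO response differed between DTG and TG hearts (comparison III minus comparison I). No probe passed the adjusted limit, beside 0% of all probes, with a lowest adjusted p of 0.74. At the looser limit 5 of 40 (12.5%) were called, and all 5 had a lower response in DTG, against 3.16% of all probes. They included Pex11a at -1.1 ± 0.46, Anxa8 at -1.22 ± 0.52, Lhx1 at -1.54 ± 0.67 and Tm9sf1 at -1.08 ± 0.47 (SE). Pex11a, Anxa8 and Lhx1 were also among the 5 higher in comparison I, whose arrays enter the interaction. The median was -0.49, beside -0.06 for all probes. The negative probes had a median difference with ISO of 0.90 in comparison I and 0.0089 in comparison III. For the circRNA control probes it was 0.93 and 0.28. A lower response in DTG was thus also seen in probes without a target, and its part in the linear probes was not tested. Without vehicle TG replicate 3, Pex11a was at -0.69 and Anxa8 at -0.75. The count became 15 without vehicle TG replicate 1, beside 22.6% of all probes, and 0 without ISO TG replicate 1, beside 2.45%. It was between 1 and 6 without any other single array, beside 1.93% to 12.6%, and 0 with slide as a block, beside 0.864%. The direction of the median depended on the scaling, as it was 0.14 with circRNA control scaling and 0.43 with no scaling. With circRNA control scaling 1 probe had a higher response in DTG and 0 a lower one (3.24% of all probes called), with no scaling 2 were higher and 0 lower (8.32%), and with normexp 3 were higher and 23 lower (44.6%).

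**Figure D5:**
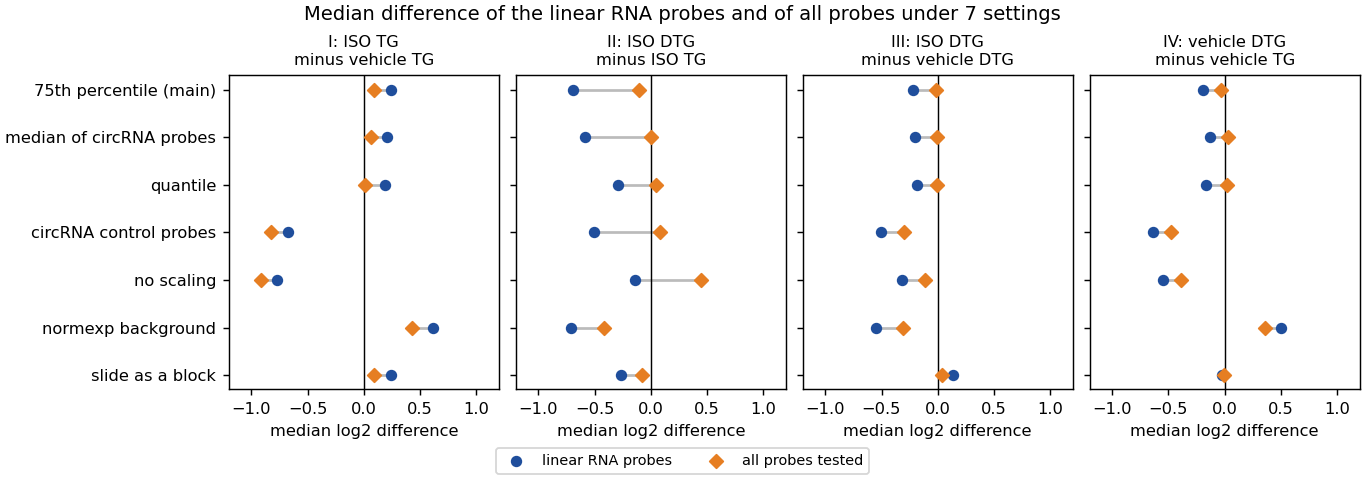
Median log2 difference of the linear RNA probes (circles) and of all probes tested (diamonds) in comparisons I to IV under 7 settings. In comparison I both medians turn negative with circRNA control scaling and with no scaling, while in comparison II the gap between them is -0.19 with slide as a block and -0.59 with the 75th percentile.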

How the data were processed

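Scanner files of 12 arrays, 1 per mouse, were used, and groups, replicate numbers, sex and age came from the labels. The authors digested total RNA with RNase R, labelled it with Cy3 and hybridised it to a circRNA array. The intensity values deposited are those of Agilent Feature Extraction 11.0.1.1 (per the labels), linear, background-corrected by that software and not normalized between arrays. The number of arrays limits the precision. Whether mice shared a litter is not given in the sources used here.

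Outlier spots were removed, log2 processed signals of a probe were averaged, and arrays were scaled by subtracting the 75th percentile that their 14236 circRNA probes had. Probes read as well above background (over 50% of spots) on at least 3 arrays were fitted with limma 3.58.1 in R 4.3.3 (lmFit, eBayes, 4 groups, with 3.98 prior degrees of freedom). The adjustment was Benjamini-Hochberg over all 13076 probes tested, of which 13032 were circRNA probes. The fit was tested on simulated data in which each probe had the same spread in all groups. That simulation does not cover the unequal spread between groups seen here. An exact permutation test of 3 against 3 cannot go below 0.10 and was not used. Symbols came from RefSeq tables of a different genome build than the array's, so no coordinates are given. Genes with values per mouse were the 3 with the lowest p in each comparison, the 3 brightest, and those without overlap in at least 2 comparisons. Ppara, Duox1 and Nup50 have values per mouse although this rule did not pick them. A gene among the members counts in every total but is not reported here by itself. The members and lists were chosen with earlier results of these data known. Of lists by function, 7 members fell in any (Rps4l, Cpt1a, Gpi1, Actb, Dnajc11, Hspb7 and H2-Q7). Alternatives were other scalings and filters, normexp (on median signals), slide, replicate number, sex or age in the fit, array weights, the methods' t-test and leaving out each array.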

Additional observations from a re-analysis of the deposited data

Results flagged for a closer look

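Of 15 custom probes on the array, which no comparison here used, 7 were brighter than every negative probe on all 12 arrays, with a highest intensity of 9618. Their targets are not named in the files.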

How the results depend on the processing

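At the adjusted limit, I, II and the interaction had 0 called probes in the reported fit. Array weights gave 7, 22 and 8 of 40, where 19.8%, 46.3% and 11.8% of all probes passed, and a fit of the 6 arrays compared gave 15 in II, beside 14.5%. Leaving out 1 array gave 0 to 2 in I, where 2 came without ISO TG replicate 3 (1.09% of all probes), and 0 to 11 in II, where 11 came without vehicle TG replicate 3 (11.7%) and 2 without ISO TG replicate 3 (10.4%). These were the alternatives in which a linear probe passed the limit, and the cause was not tested. At the looser limit the methods' t-test called 0, 17, 0 and 0 of 40 in I to IV, beside 2.27%, 24.7%, 3.60% and 0.757% of all probes. After Benjamini-Hochberg adjustment it called 0 of 40 in each, beside 0.0459% of all probes in II and 0% in the others.

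Medians of the linear probes moved by more than the SD between arrays (0.22) in these cases. With no scaling they were -0.77 in I, -0.14 in II, -0.55 in IV and 0.43 in the interaction. With circRNA control scaling they were -0.68 in I, -0.50 in III, -0.64 in IV and 0.14 in the interaction. With normexp they were 0.62 in I, -0.55 in III, 0.50 in IV and -1.15 in the interaction. Quantile normalization gave -0.29 in II. Slide as a block gave -0.27 in II, 0.14 in III and -0.16 in the interaction, and slide 1 alone gave 0.14 in III. Array weights gave 0.47 in I, and age as a covariate gave -0.23 in the interaction. Leaving out 1 array did not move the median by more than this SD in I, at 0.080 to 0.33, or in II, at -0.84 to -0.56. It gave -0.34 to 0.00062 in III and -0.62 to -0.23 in the interaction. In IV it gave -0.29 to 0.15, where only the fit without vehicle TG replicate 1 was positive. The ranges in III, IV and the interaction include fits that moved by less than this SD. The median in II was negative in every alternative run.

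Single genes that turned in I included Pex11a (-0.16), Rps4l (-0.45), Tm9sf1 (-0.31) and Anxa8 (-0.066) with no scaling, and Pex11a (-0.061), Rps4l (-0.36) and Tm9sf1 (-0.21) with circRNA control scaling. With normexp, Cav2 (0.54) and Nup50 (0.47) turned in I, and Rab5a (0.64) and Trp53rka (0.95) in IV. The number above every negative probe on all arrays was 16 to 19 in all alternatives.

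Deviations of same-numbered arrays from their group means correlated at -0.37 to 0.36. Differently numbered arrays were not compared, so these values cannot decide whether the replicate numbers pair the mice. With the replicate block, 0 probes passed the adjusted limit in any comparison and the median in II stayed at -0.69. The number of arrays and the dim signal of 14 of the 46 probes, which were not well above background on all 12 arrays, limit what could be detected.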
